A study of Homo sapiens with 24 samples.

Results

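The untreated cells of 2 glioma cell lines, LN18 and 1321N1, were compared to describe how the lines differed without drug treatment. The comparison rested on the 3 control libraries of each line and on the genes listed for both lines, joined by gene symbol, with genes of chromosomes X and Y left out. Of 34229 gene symbols listed anywhere in the series, 22721 were listed in the control tables of both lines, and 16232 of these had a known place outside chromosomes X and Y. Expression was given as RPKM (reads per kilobase of transcript, scaled to each library's total of counted reads), and the 11088 genes that averaged 1 RPKM or more over the 6 libraries were tested.

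The study treated glioma cells with EGCG, the main catechin of green tea, hydroxychavicol (HC), a phenol of betel leaf, or both together (EGCG+HC), and sequenced 24 libraries of poly(A) RNA after 24 h. The labels give 1321N1 as a grade II and LN18 as a grade IV tumour of the brain. The control cells received no drug. The study's methods name ethanol as the solvent of HC and culture medium as that of EGCG. They call the controls vehicle controls and state that ethanol was added to them. Untreated here means given neither EGCG nor HC. Both lines were grown in DMEM, 1321N1 with a higher share of foetal bovine serum than LN18. Each grade was represented by a single cell line, so a difference between the lines cannot be told apart from a difference between grades, serum levels or any batch that the labels do not name. The labels describe the 3 libraries of a group as independent tests. The p-values measure the spread between these libraries.

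Gliomas arise from glial or neural precursor cells, and their cells can resemble astrocytes, oligodendrocyte progenitors or mesenchymal tissue. The mesenchymal state is known for high expression of extracellular matrix, adhesion and wound response genes. Established lines in serum commonly lose glial markers, and each line keeps its own set of developmental transcription factors, growth factors and chromosomal gains or losses.

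The control libraries held between 15460000 and 32300000 counted reads, as estimated from the steps between low RPKM values, with LN18 replicate 2 the deepest. At 1 RPKM and a transcript of 2 kb, these depths gave 30.9 to 64.6 reads and a counting error of 12.4 to 18.0%. The number of genes above 0 did not follow depth in LN18. Replicate 1, the shallowest, held 24028, against 22599 in replicate 2 and 22207 in replicate 3. In 1321N1, replicate 3 held 23611, against 21210 and 21246 in replicates 1 and 2. The cause was not tested, and values near 0 are less comparable between libraries. Across the tested genes, libraries of a line correlated at 0.995 to 0.997 and libraries of different lines at 0.809 to 0.813 (Pearson's r of log2(RPKM + 1) across genes, which are not independent replicates). The median SD of a gene was 0.07 in 1321N1 and 0.06 in LN18 on the log2 scale, against a median absolute difference of 0.47 between the lines. RPKM are relative to each library's own total, so that less of one RNA and more of the rest cannot be told apart. In bulk RNA, fewer cells expressing a gene and less of its RNA per cell cannot be told apart either.

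A gene was called where limma, on log2(RPKM + 1), gave an adjusted p (Benjamini-Hochberg) no higher than 0.05 and the fold change was 1.5 or more. By these limits 4536 of 11088 genes (40.9%) differed, 2341 (21.1%) higher in LN18 and 2195 (19.8%) higher in 1321N1. The median difference over all tested genes, LN18 minus 1321N1, was 0.03 on the log2 scale. The p-value alone separated little, since 9200 genes (83.0%) had an adjusted p of at most 0.05 and in 9326 (84.1%) all libraries of one line lay above all of the other. Differences of at least 2 on the log2 scale were called in 289 genes higher in LN18 and 297 higher in 1321N1. In 55 genes (0.339% of the 16232) every LN18 library held at least 10 RPKM and every 1321N1 library less than 1 RPKM, and in 46 genes (0.283%) the reverse was found. All log2 differences below are LN18 minus 1321N1 on the log2(RPKM + 1) scale with their SE, and they understate the difference of genes near 0. Levels given with ± are means and SD of the 3 libraries of a line. Folds are ratios of mean RPKM, given where both lines held at least 1 RPKM.

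**Figure D1:**
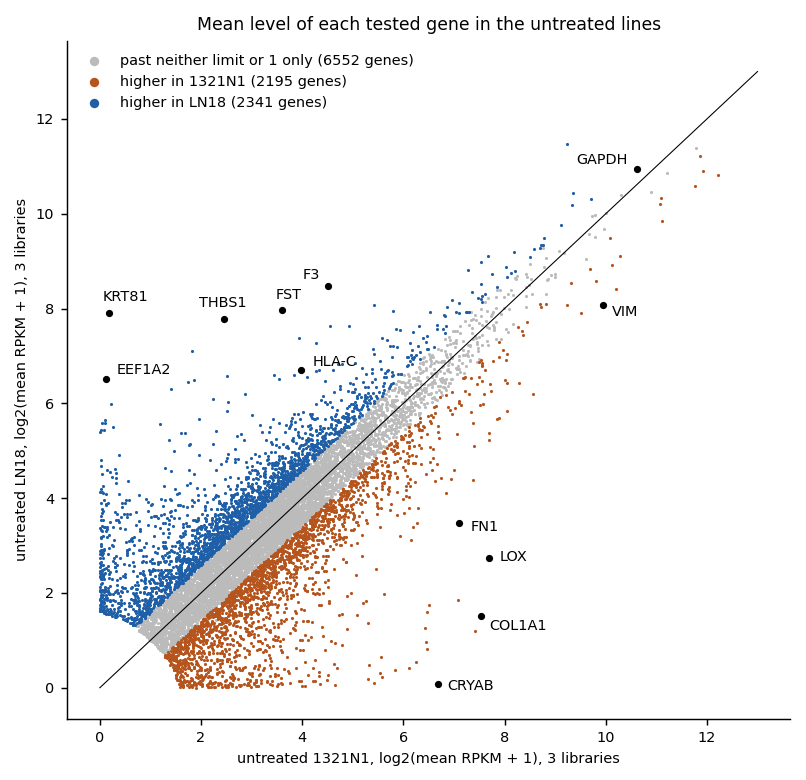
Each point is 1 tested gene, with the mean of 3 untreated 1321N1 libraries on the horizontal axis and of 3 untreated LN18 libraries on the vertical axis, both as log2(mean RPKM + 1), and the line marks equality. Blue points are the 2341 genes called higher in LN18, orange points the 2195 called higher in 1321N1 and grey points the 6552 others. Black points are named genes, with KRT81 and CRYAB at the far edges.

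Of 29 genes with the largest differences, 20 stayed below 1 RPKM in every library of the lower line. The other 9 averaged at most 5.68 RPKM (LOX) there, and by the rule that chose them all held at least 10 RPKM in every library of the higher line. CRYAB, a small heat shock protein of lens, muscle and glia, measured 101, 101 and 105 RPKM in 1321N1 and 0.043, 0.020 and 0.101 RPKM in LN18. The libraries of the lines were far apart (log2 difference -6.61, SE 0.05, limma adjusted p = 7.03e-12). In the other direction KRT81, a keratin of the hair shaft, measured 0.154, 0.154 and 0.11 RPKM in 1321N1 and 239, 233 and 241 RPKM in LN18. That was the largest difference in the table (log2 difference 7.71, SE 0.04, limma adjusted p = 1.64e-12). KRT81 lies within the span of KRT86 on chromosome 12, on the opposite strand, and is a close relative of it. As the library kit keeps no strand, reads of these genes may have been shared, and KRT86 was also higher in LN18 (1.41 ± 0.153 RPKM in 1321N1 and 18.2 ± 0.33 RPKM in LN18).

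In 1321N1 the next largest differences were those of type I collagen. COL1A2, which encodes its alpha 2 chain, measured 181, 165 and 166 RPKM in 1321N1 and 1.39, 1.19 and 1.28 RPKM in LN18. COL1A1, the alpha 1 chain, measured 201, 171 and 178 RPKM in 1321N1 and 2.0, 1.71 and 1.85 RPKM in LN18. Both chains were thus abundant in each 1321N1 library and low in each LN18 library (log2 difference -6.23, SE 0.05, limma adjusted p = 1.91e-11 for COL1A2). LOX and LOXL3, enzymes that crosslink collagen and elastin, were also among the 15 largest, and LOX was 36.3-fold higher in 1321N1 (206 ± 1.18 RPKM in 1321N1 and 5.68 ± 0.0172 RPKM in LN18). ALX1, a homeobox factor of craniofacial mesenchyme, measured 73.4, 74.9 and 76.2 RPKM in 1321N1 and 0.406, 0.407 and 0.576 RPKM in LN18. CSPG4, the NG2 proteoglycan of oligodendrocyte progenitors and pericytes, measured 61, 51.9 and 54.1 RPKM in 1321N1 and 0.291, 0.317 and 0.301 RPKM in LN18. Neither gene reached 1 RPKM in an LN18 library. FGF5, a secreted fibroblast growth factor, was 51.2-fold higher in 1321N1 (134 ± 2.61 RPKM in 1321N1 and 2.61 ± 0.725 RPKM in LN18).

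Further genes of this group were PRR16, PCDH10 (a protocadherin, an adhesion protein of neurons), FAM180A, SP3P, PLTP (phospholipid transfer protein) and SLC43A3 (a membrane transporter). Their mean levels in 1321N1 lay between 38.6 RPKM (SLC43A3) and 87.9 RPKM (PCDH10). SP3P is annotated as a processed pseudogene of the transcription factor gene SP3, so its reads may belong to another copy.

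In LN18, EEF1A2, an elongation factor of translation that is normally confined to neurons and muscle, measured 0.096, 0.064 and 0.115 RPKM in 1321N1 and 99.2, 81.2 and 89.2 RPKM in LN18. ALDOC, the aldolase isoform of brain, measured 0.202, 0.142 and 0.145 RPKM in 1321N1 and 68.3, 56.6 and 61 RPKM in LN18. All 3 LN18 libraries lay above 50 RPKM for both genes and all 3 1321N1 libraries below 1 RPKM. FOXF1, a forkhead factor of lung and gut mesenchyme, and FENDRR, the long noncoding RNA that neighbours it on chromosome 16, were on together. FOXF1 measured 0.069, 0.023 and 0.145 RPKM in 1321N1 and 50.2, 44 and 52.9 RPKM in LN18, and FENDRR measured 0.017, 0.017 and 0.00782 RPKM in 1321N1 and 45.3, 39.3 and 42 RPKM in LN18. VAMP5 and VAMP8, neighbouring genes of vesicle fusion proteins on chromosome 2, also shared this pattern, with LN18 means of 47.1 and 44.3 RPKM and 1321N1 means of 0.024 and 0.191 RPKM.

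THBS1, thrombospondin 1, a matrix glycoprotein that can activate TGF-beta, measured 4.63, 4.6 and 4.16 RPKM in 1321N1 and 189, 237 and 225 RPKM in LN18, which was 48.6-fold higher in LN18. DIO2, the deiodinase that activates thyroid hormone, was 54.3-fold higher (2.52 ± 0.183 RPKM in 1321N1 and 137 ± 9.94 RPKM in LN18). IFITM3, an interferon-induced restriction factor of viruses, measured 1.67, 1.8 and 1.46 RPKM in 1321N1 and 87.9, 67.8 and 77.4 RPKM in LN18, and its near copy IFITM2 was higher as well (2.39 ± 0.158 RPKM in 1321N1 and 23.3 ± 2.04 RPKM in LN18). IGFBP5, an IGF binding protein, was 36.6-fold higher (2.36 ± 0.217 RPKM in 1321N1 and 86.5 ± 10.0 RPKM in LN18). The last genes of the group were RAC2 (a small GTPase of blood cells), NETO2 (an auxiliary subunit of kainate receptors), MYL9 (a light chain of smooth muscle myosin) and CYP1B1, with LN18 means of 42.5, 41.2, 27 and 24.5 RPKM. NETO2, VAMP5 and MYL9 were listed at 0 in 2 of the 3 1321N1 libraries.

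**Figure D2:**
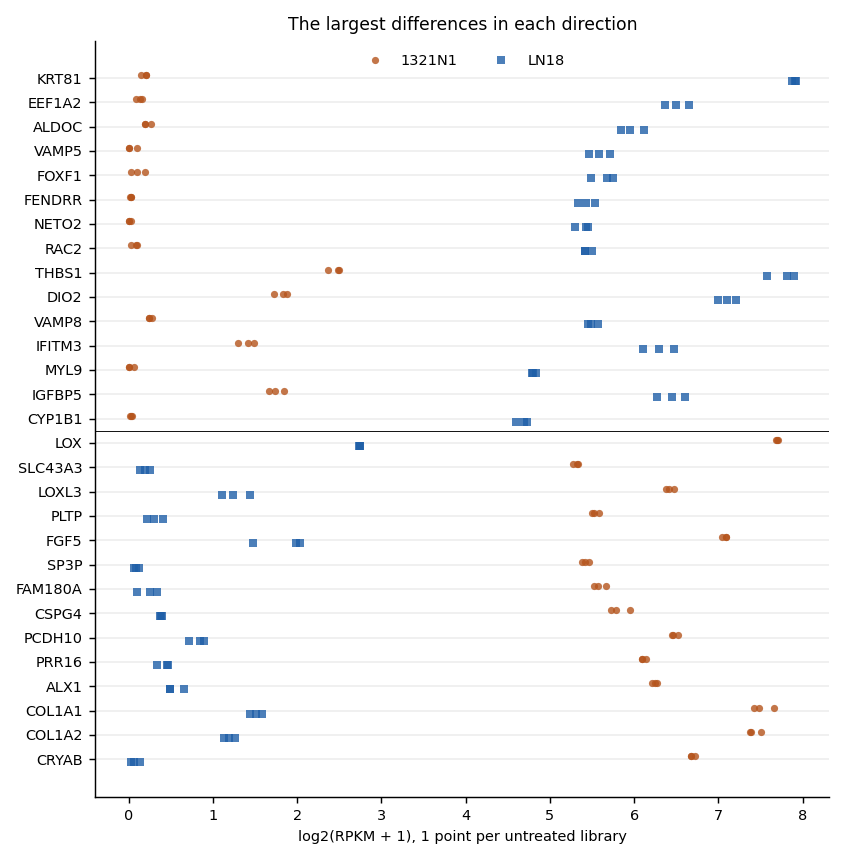
Each point is 1 untreated library, circles for 1321N1 and squares for LN18, with log2(RPKM + 1) on the horizontal axis and 1 gene per row. The 15 rows above the line are the largest differences higher in LN18 and the 14 below it are among the largest higher in 1321N1. In no row do the lines overlap, as the rule that chose these genes required.

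The promoter of the first gene of each direction that the RefSeq table held (GRCh38.p14, 250 bases before to 50 after the start, CpG in capitals) is printed to show the start region of a gene used in only one of the lines. PRR16, on in 1321N1, lies on the plus strand of chromosome 5 at chr5:120464050-120464349. ALDOC, on in LN18, lies on the minus strand of chromosome 17 at chr17:28576846-28577145, and its sequence reads 5′ to 3′ along the gene.
PRR16: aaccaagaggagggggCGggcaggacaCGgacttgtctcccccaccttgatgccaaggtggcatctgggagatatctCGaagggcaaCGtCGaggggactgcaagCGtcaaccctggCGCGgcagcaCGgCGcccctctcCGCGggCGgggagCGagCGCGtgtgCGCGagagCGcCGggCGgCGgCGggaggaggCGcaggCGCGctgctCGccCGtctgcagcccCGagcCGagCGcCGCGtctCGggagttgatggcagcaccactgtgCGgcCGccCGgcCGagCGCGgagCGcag
ALDOC: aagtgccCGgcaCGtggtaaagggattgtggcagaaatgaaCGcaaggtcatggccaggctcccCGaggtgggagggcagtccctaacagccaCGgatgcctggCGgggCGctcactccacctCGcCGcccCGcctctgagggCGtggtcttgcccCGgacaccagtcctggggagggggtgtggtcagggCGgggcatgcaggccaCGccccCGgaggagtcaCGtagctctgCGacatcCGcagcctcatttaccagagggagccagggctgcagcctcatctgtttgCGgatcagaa
The PRR16 window held 41 CpG and the ALDOC window 19. Over all 35116 promoters of the table the median was 14 CpG, and over the 8881 tested genes with a promoter in it 27, of which 5.68% held at most 5 CpG. Of the genes on in LN18 alone by the limits of 10 and 1 RPKM, 39 of 55 had a promoter in the table, with a median of 17 CpG and 28.2% at 5 or fewer. Of those on in 1321N1 alone 31 of 46 had one, with a median of 19 CpG and 16.1% at 5 or fewer. Methylation was not measured.

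The labelled cell type was checked against its defining markers. GFAP, the intermediate filament of astrocytes, measured 0.078, 0.088 and 0.087 RPKM in 1321N1 and 0.107, 0.107 and 0.158 RPKM in LN18 and was thus close to 0 in both lines. The glial markers S100B, AQP4, OLIG2 and SOX10 were listed in neither control table, nor was SOX2, a neural stem cell factor. Of 15 defining markers of astrocytes, oligodendrocytes, neurons, epithelium, blood and endothelium, 8 were listed in both tables, and 7 of these (GFAP, MBP, RBFOX3, EPCAM, CDH1, PTPRC and VWF) stayed under 1 RPKM in every library. SNAP25, a synaptic protein, reached 1.09 RPKM in LN18 replicate 1. The glial origin that the labels give was thus not visible in these defining transcripts, in either line. A gene missing from a table was not taken as silent.

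Of 17 tested markers of glia and neural stem cells, 9 were higher in 1321N1 and 3 in LN18 (median -0.63, against 0.03 over all tested genes). Together 70.6% were called, against 40.9% of all tested genes. VIM, the intermediate filament vimentin, measured 1038, 961 and 948 RPKM in 1321N1 and 264, 263 and 276 RPKM in LN18, 3.66-fold higher in 1321N1 (log2 difference -1.87, SE 0.05, limma adjusted p = 1.87e-09). NFIX, a factor of neural stem cell quiescence, was 5.03-fold higher in 1321N1 (57.9 ± 3.71 RPKM in 1321N1 and 11.5 ± 0.506 RPKM in LN18). SOX11, HES6, ITGA6, BMI1, GLUL and NFIA were also called higher in 1321N1. CD44, the hyaluronan receptor and a mesenchymal marker, measured 52.6, 55.8 and 54.2 RPKM in 1321N1 and 137, 155 and 147 RPKM in LN18, 2.7-fold higher in LN18. SLC1A3, the glutamate transporter GLAST of astrocytes and radial glia, measured 0.189, 0.313 and 0.271 RPKM in 1321N1 and 12.2, 11.1 and 11.5 RPKM in LN18. CLU was the third member higher in LN18. NES (nestin), the usual filament of neural stem cells, averaged 1.31 RPKM in 1321N1 and 0.0393 RPKM in LN18 and fell below the limit for testing. SOX9 was not called (4.86 ± 0.26 RPKM in 1321N1 and 4.0 ± 0.277 RPKM in LN18).

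Genes of the published glioma states did not fall to one side. Of 32 tested mesenchymal genes, 13 were higher in LN18 and 9 in 1321N1 (median 0.12). Called were 68.8% of them, against 40.9% of all tested genes. COL5A1, a chain of type V collagen, was 4.2-fold higher in 1321N1 (51.9 ± 4.27 RPKM in 1321N1 and 12.4 ± 0.832 RPKM in LN18), and TGFBI, a TGF-beta induced matrix protein, went the other way (6.3 ± 0.374 RPKM in 1321N1 and 72.7 ± 1.79 RPKM in LN18). Of 8 tested proneural genes, 3 were higher in 1321N1 and 1 in LN18 (50% called). PDGFRA, the PDGF receptor alpha, was 2.22 ± 0.159 RPKM in 1321N1 and 0.416 ± 0.0356 RPKM in LN18. Among oligodendrocyte lineage genes, NKX2-2 was higher in 1321N1 (2.83 ± 0.274 RPKM in 1321N1 and 0.073 ± 0.0377 RPKM in LN18) and MYRF in LN18 (0.00694 ± 0.00604 RPKM in 1321N1 and 2.22 ± 0.0909 RPKM in LN18).

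Genes of interferon response and antigen presentation lay mostly on the side of LN18. Of 35 tested members 28 were higher in LN18 and 3 in 1321N1 (median 1.33), against 21.1 and 19.8% of all tested genes. HLA-C, a class I antigen presenting molecule, measured 16.8, 13.3 and 14.3 RPKM in 1321N1 and 107, 98.8 and 104 RPKM in LN18 (6.99-fold, log2 difference 2.73, SE 0.08, limma adjusted p = 3.96e-09). HLA-B and HLA-E were higher too, while B2M, their common light chain, differed by 1.5-fold (96.2 ± 7.92 RPKM in 1321N1 and 145 ± 3.62 RPKM in LN18). HLA genes vary between people and resemble each other, and the part of the alignment to 1 reference in these levels was not tested. PSMB8 and PSMB9, the immunoproteasome subunits, measured 2.78, 2.28 and 2.12 RPKM in 1321N1 and 34.4, 33.2 and 34.4 RPKM in LN18 for PSMB8 and 0.424, 0.27 and 0.19 RPKM in 1321N1 and 16.6, 14.9 and 16.8 RPKM in LN18 for PSMB9. MB21D1 (cGAS), the sensor of cytosolic DNA, averaged 0.0183 RPKM in 1321N1 and 6.9 RPKM in LN18. TMEM173 (STING), which acts next to it, lay the other way (11.7 ± 0.265 RPKM in 1321N1 and 2.19 ± 0.203 RPKM in LN18), with BST2 and IFI16. Levels of interferon-induced transcripts varied within the list. IFIT1, IFIT2, IFIT3, MX1, MX2 and OAS1 averaged below 1.5 RPKM in both lines, whereas IFITM3, IFITM2 and PSMB9 were far above this in LN18, and ISG15 was at 13.3 ± 0.739 RPKM in 1321N1 and 30.4 ± 2.64 RPKM in LN18.

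Antioxidant genes and targets of NRF2, the main regulator of the oxidative stress response, also lay mostly on the side of LN18. Of 49 tested members 25 were higher in LN18 and 5 in 1321N1 (median 0.67). Together 61.2% were called, against 40.9% of all tested genes. NQO1, a quinone reductase, measured 40.3, 42.9 and 42.4 RPKM in 1321N1 and 267, 269.7 and 271 RPKM in LN18, 6.43-fold higher in LN18 (log2 difference 2.66, SE 0.04, limma adjusted p = 1.07e-10). SLC7A11, the cystine importer, measured 9.61, 10.3 and 9.85 RPKM in 1321N1 and 89.4, 101 and 98.6 RPKM in LN18, 9.69-fold higher. TXNRD1, thioredoxin reductase, was 4.51-fold higher, GCLC, the first enzyme of glutathione synthesis, 5.21-fold, and FTL, the ferritin light chain, 4.76-fold. GPX3, AKR1B10 and GSTM3 were on in LN18 alone, with LN18 means of 23.6, 22 and 20.5 RPKM. NFE2L2, which encodes NRF2, was 1.64-fold higher in LN18 (11.9 ± 0.398 RPKM in 1321N1 and 19.6 ± 0.572 RPKM in LN18), and KEAP1, its inhibitor, was 1.8-fold higher in 1321N1 (22.4 ± 2.09 RPKM in 1321N1 and 12.4 ± 0.775 RPKM in LN18).

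Other members did not follow this pattern. ME1, malic enzyme, itself counted among NRF2 targets, measured 7.09, 7.59 and 7.87 RPKM in 1321N1 and 0.116, 0.064 and 0.13 RPKM in LN18. PRDX2, GPX1 and MGST3 were also higher in 1321N1. HMOX1, heme oxygenase 1, held 13 ± 0.716 RPKM in 1321N1 and 8.94 ± 0.852 RPKM in LN18 and was not called. AKR1C1 was at 1.22 ± 0.163 RPKM in 1321N1 and 1.16 ± 0.0839 RPKM in LN18 and overlapped between the lines. Its near-identical relative AKR1C2 was higher in LN18 (0.433 ± 0.0724 RPKM in 1321N1 and 14.5 ± 0.589 RPKM in LN18). Reads of these family members could have been shared, so the level of AKR1C1 alone is uncertain. SOD2, CAT and GSTP1 were not called, with differences of -0.08, -0.16 and -0.13.

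The study treated these lines with phenols, so genes of aryl compound and catechol metabolism were listed separately. AHR, the aryl hydrocarbon receptor, measured 0.027, 0.018 and 0.00797 RPKM in 1321N1 and 6.89, 7.41 and 7.29 RPKM in LN18. Its targets CYP1B1, AHRR and ALDH3A1 were higher in LN18, CYP1B1 with 0.030, 0.020 and 0.00883 RPKM in 1321N1 and 23.3, 24.9 and 25.4 RPKM in LN18. All 3 libraries of 1321N1 lay below 0.1 RPKM for AHR and CYP1B1. Of 19 tested genes of this group 6 were higher in LN18 and 2 in 1321N1 (median 0.27). The called share was 42.1%, near the 40.9% of all tested genes.

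Extracellular matrix genes lay mostly on the side of 1321N1. Of 39 tested matrix proteins and enzymes other than collagens, 24 were higher in 1321N1 and 8 in LN18 (median -1.01). Of 18 tested collagens 9 were higher in 1321N1 and 4 in LN18 (median -0.60). The called shares of these lists were 82.1% and 72.2%, against 40.9% of all tested genes. FN1, fibronectin, measured 138, 138 and 136 RPKM in 1321N1 and 9.66, 10.2 and 10.3 RPKM in LN18, 13.6-fold higher in 1321N1 (log2 difference -3.64, SE 0.04, limma adjusted p = 3.33e-11). COL11A1 was 43.2-fold higher (87.3 ± 2.3 RPKM in 1321N1 and 2.02 ± 0.24 RPKM in LN18), HSPG2 (perlecan) 13.5-fold and TNC (tenascin C) 3.88-fold. The members higher in LN18 were led by THBS1 and LAMB3, a laminin chain, which measured 2.71, 2.92 and 3.07 RPKM in 1321N1 and 46.8, 51.8 and 51.8 RPKM in LN18. COL7A1, the anchoring fibril collagen, was 17.6-fold higher in LN18 (1.76 ± 0.0447 RPKM in 1321N1 and 30.9 ± 0.443 RPKM in LN18). SPARC differed by 0.47 and was not called.

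Integrins, the receptors for matrix, were mostly called but divided in direction. Of 13 tested, 7 were higher in 1321N1 and 5 in LN18 (92.3% called, against 40.9% of all tested genes). ITGB1, the common beta chain, was 3.05-fold higher in 1321N1 (189.9 ± 11.6 RPKM in 1321N1 and 62.2 ± 2.24 RPKM in LN18), and ITGA7, a laminin receptor chain, measured 8.82, 8.05 and 8.17 RPKM in 1321N1 and 0.296, 0.272 and 0.295 RPKM in LN18. ITGA2, the collagen receptor chain, was 7.43-fold higher in LN18 (1.66 ± 0.113 RPKM in 1321N1 and 12.3 ± 0.295 RPKM in LN18), with ITGB4, a beta chain of a laminin receptor.

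Of 12 tested cadherins and factors of the epithelial-mesenchymal transition, 8 were higher in 1321N1 and 3 in LN18 (median -1.07). Together 91.7% were called, against 40.9% of all tested genes. CDH2, N-cadherin, measured 108, 107 and 104 RPKM in 1321N1 and 19.3, 20.6 and 21.3 RPKM in LN18 (log2 difference -2.33, SE 0.04, limma adjusted p = 4.57e-10). CDH13 was at 21.7 and 0.204 RPKM. ZEB1 (13.7 ± 0.76 RPKM in 1321N1 and 3.58 ± 0.201 RPKM in LN18), ZEB2, SNAI2 and TWIST1 were higher in 1321N1, whereas SNAI1 measured 0.316, 0.211 and 0.346 RPKM in 1321N1 and 10.6, 9.25 and 10.8 RPKM in LN18 and TWIST2 was also higher in LN18. CDH1, E-cadherin, stayed below 0.5 RPKM in every library. Of 11 tested keratins and epithelial markers 8 were higher in LN18 and 1 in 1321N1 (median 1.22, 81.8% called). KRT8 and KRT18, the keratin pair of simple epithelia, were 36-fold and 8.51-fold higher (1.28 ± 0.131 RPKM in 1321N1 and 46.2 ± 3.67 RPKM in LN18 for KRT8). EPCAM, DSP, CLDN7 and KRT5 were below 1 RPKM in every library, and keratins led the group.

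Proteases and their inhibitors differed member by member, with 14 of 40 tested higher in 1321N1 and 11 in LN18 (median -0.01). Together 62.5% were called, against 40.9% of all tested genes. F3, tissue factor, which starts coagulation, measured 20.4, 23.4 and 21.8 RPKM in 1321N1 and 341, 364 and 362 RPKM in LN18, 16.3-fold higher in LN18 (log2 difference 3.97, SE 0.05, limma adjusted p = 9.44e-11). PLAU, the urokinase plasminogen activator, was 18.4-fold higher in LN18, with 2.41, 2.29 and 1.91 RPKM in 1321N1 and 34.8, 43 and 44 RPKM in LN18. MMP1, MMP2 and MMP3 were higher in LN18, MMP2 by 5.93-fold (4.7 ± 0.292 RPKM in 1321N1 and 27.9 ± 1.69 RPKM in LN18), and MMP14, MMP15 and MMP16, which are anchored in the membrane, were higher in 1321N1.

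Receptor tyrosine kinases were more often higher in 1321N1, 14 of 25 tested against 5 (median -0.70). Called were 76% of them, against 40.9% of all tested genes. ERBB4 measured 6.53, 6.94 and 6.92 RPKM in 1321N1 and 0.090, 0.145 and 0.108 RPKM in LN18 and EPHA3 8.84, 8.91 and 9.02 RPKM in 1321N1 and 0.068, 0.093 and 0.079 RPKM in LN18. EGFR, the receptor most often altered in glioblastoma, measured 9.9, 10.5 and 9.69 RPKM in 1321N1 and 23.6, 26.4 and 24.6 RPKM in LN18, 2.48-fold higher in LN18 (log2 difference 1.23, SE 0.05, limma adjusted p = 5.83e-08), as were EPHA2, PDGFRB, DDR1 and PTK7. AXL was 1.61-fold higher in 1321N1 (146 ± 8.34 RPKM in 1321N1 and 91.2 ± 4.44 RPKM in LN18), while MET was not called at 0.27. The ligands were evenly divided, with 7 of 24 tested on each side (58.3% called). Those higher in LN18 included EREG, a ligand of EGFR (0.031, 0.010 and 0.019 RPKM in 1321N1 and 16.4, 17.5 and 17.9 RPKM in LN18), PDGFB (0.0613 ± 0.0293 RPKM in 1321N1 and 6.49 ± 0.309 RPKM in LN18) and HGF, the ligand of MET (0.0357 ± 0.0172 RPKM in 1321N1 and 3.6 ± 0.129 RPKM in LN18).

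Among the BMP and TGF-beta genes 14 of 37 tested were higher in 1321N1 and 9 in LN18 (median -0.13). Together 62.2% were called, against 40.9% of all tested genes. ID1, ID2 and ID3, classical targets of BMP signals, were all higher in 1321N1, ID1 by 5.09-fold (227, 195 and 196 RPKM in 1321N1 and 39.1, 38 and 44.5 RPKM in LN18). SMAD6, the inhibitory SMAD that BMP induces, was 9.08-fold higher in 1321N1 (42.8 ± 2.36 RPKM in 1321N1 and 4.72 ± 0.21 RPKM in LN18). FST, follistatin, a secreted inhibitor of activins and BMPs, measured 10.6, 11.6 and 11.4 RPKM in 1321N1 and 229, 270.4 and 247 RPKM in LN18, 22.2-fold higher in LN18 (log2 difference 4.35, SE 0.06, limma adjusted p = 1.21e-10). TGFB2 was 5.93-fold higher in LN18, and TGFB1 1.61-fold higher in 1321N1.

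In the Wnt pathway 8 of 23 tested genes were higher in 1321N1 and 6 in LN18. Called were 60.9% of them, against 40.9% of all tested genes. WNT5A, a ligand of the branch that does not act through beta-catenin, measured 2.17, 1.92 and 2.06 RPKM in 1321N1 and 38.8, 41 and 41 RPKM in LN18, and DKK1, a secreted Wnt inhibitor, measured 0.242, 0.323 and 0.313 RPKM in 1321N1 and 25.3, 33 and 29.1 RPKM in LN18. In the Notch pathway NOTCH1 and NOTCH2 were 6.07-fold and 2.61-fold higher in 1321N1, and RBPJ, the DNA-binding partner of the cleaved receptor, was 5.08-fold higher in LN18. In the Hedgehog pathway GLI1, GLI2, HHIP and GAS1 were higher in 1321N1 and SMO in LN18, all at low levels, with GLI1 at 1.91 ± 0.152 RPKM in 1321N1 and 0.328 ± 0.0168 RPKM in LN18.

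Developmental transcription factors gave each line its own set. Of 40 tested patterning factors other than HOX genes 16 were higher in 1321N1 and 11 in LN18 (median -0.13). Called were 67.5% of these factors and 70% of the tested HOX genes, against 40.9% of all tested genes. Beside ALX1, 1321N1 held LHX2 and ZIC1, of which ZIC1 measured 2.87, 2.87 and 2.51 RPKM and was listed at 0 in all 3 LN18 libraries. LN18 held FOXF1, TFAP2C (0, 0 and 0.017 RPKM in 1321N1 and 15.5, 17 and 17 RPKM in LN18), EYA4 and ALX4. Of 10 tested HOX genes 5 were higher in LN18 and 2 in 1321N1, with HOXB7 at 0.39, 0.234 and 0.454 RPKM in 1321N1 and 14.2, 13.4 and 11.5 RPKM in LN18 and HOXD3 at 7.36, 7.36 and 7.91 RPKM in 1321N1 and 0.070, 0.033 and 0.15 RPKM in LN18.

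Imprinted genes, which are expressed from 1 parental copy, contained several that were below 0.1 RPKM in one line and measurable in the other. SNRPN measured 11.1, 8.66 and 11.7 RPKM in 1321N1 and 0.093, 0.044 and 0.038 RPKM in LN18. PLAGL1 measured 0, 0.0096 and 0.017 RPKM in 1321N1 and 8.44, 9.47 and 9.09 RPKM in LN18, and ZIM2, which shares exons with PEG3, was listed at 0 in all 3 1321N1 libraries and measured 4.37, 7.96 and 6.69 RPKM in LN18. PEG10 was 23-fold higher in LN18 (1.57 ± 0.128 RPKM in 1321N1 and 36.3 ± 1.1 RPKM in LN18). Of 18 tested members 8 were higher in LN18 and 4 in 1321N1 (66.7% called, against 40.9% of all tested genes).

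Genes of the main glioma driver pathways lay near the background. Of 41 tested tumour suppressors, oncogenes and cell cycle inhibitors, 7 were higher in LN18 and 11 in 1321N1. Called in either direction were 43.9%, against 40.9% of all tested genes. The median of the list was -0.26, and its median absolute difference was 0.46 against 0.47 over all tested genes. TERT, the catalytic subunit of telomerase, measured 3.33, 2.57 and 2.63 RPKM in 1321N1 and 7.23, 6.71 and 7.0 RPKM in LN18, 2.46-fold higher in LN18 (log2 difference 1.06, SE 0.08, limma adjusted p = 1.81e-06). CDK4 was 1.7-fold higher in 1321N1. RB1, MYC, IDH1, CCND1, CDK6 and MDM2 were not called, with differences between -0.53 (MYC) and -0.25 (RB1). MYC passed both limits without replicate 2 of 1321N1 (-0.59) or without replicate 2 of LN18 (-0.60). MGMT, the repair enzyme that removes temozolomide adducts, measured 3.13, 3.1 and 3.03 RPKM in 1321N1 and 3.06, 2.99 and 3.41 RPKM in LN18, and the lines overlapped (log2 difference 0.02, SE 0.06, limma adjusted p = 0.725). CDKN2A and MTAP were listed in neither control table, and CDKN2B only in that of LN18, where it stayed below 0.1 RPKM.

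Proliferation genes were divided between the lines. Of 50 tested mitosis genes 14 were higher in 1321N1 and 2 in LN18 (median -0.29), led by PTTG1 (securin), at 132 ± 5.47 RPKM in 1321N1 and 39.6 ± 2.58 RPKM in LN18. Of 49 tested DNA replication genes 16 were higher in LN18 and 3 in 1321N1 (median 0.36), among them ORC6, a subunit of the origin recognition complex (8.68 ± 0.592 RPKM in 1321N1 and 36.6 ± 1.87 RPKM in LN18). The called shares were 32.0% of the mitosis genes and 38.8% of the DNA replication genes, against 40.9% of all tested genes. MKI67, the usual proliferation marker, was not called (79.6 ± 3.79 RPKM in 1321N1 and 67.4 ± 1.85 RPKM in LN18).

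Mitochondrial transcripts took 10.9 to 12.0% of the summed RPKM in 1321N1 and 5.96 to 6.53% in LN18. Of 13 mitochondrially encoded proteins 10 were higher in 1321N1 and 0 in LN18 (median -1.18), MT-ND1 by 3.46-fold (1111, 1179.5 and 1243 RPKM in 1321N1 and 321, 339 and 362 RPKM in LN18). Called were 76.9% of the 13, against 40.9% of all tested genes. With quantile normalization 6 were called and the median was -0.54. Of 64 tested nuclear subunits of the same complexes 17 were higher in LN18 and 3 in 1321N1 (median 0.25), so that 31.2% were called against 40.9% of all tested genes. ATP5G3, which encodes the c subunit of ATP synthase, measured 0.026, 0.026 and 0.023 RPKM in 1321N1 and 22.7, 21.4 and 21.6 RPKM in LN18. PSMD5 and NSUN5, a proteasome assembly factor and an rRNA methyltransferase named after their values were seen, were likewise close to 0 in 1321N1 (0.090 and 0.051 RPKM) and at 13.7 and 18.1 RPKM in LN18. Of 22 tested glycolysis genes 8 were higher in LN18 and 2 in 1321N1 (median 0.44), a called share of 45.5% against 40.9%. SLC2A1, the glucose transporter GLUT1, was 4.5-fold and GPI 5.83-fold higher in LN18.

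Of 74 cytosolic ribosomal proteins 21 were higher in LN18 and 1, RPL12, in 1321N1 (median 0.23), a called share of 29.7% against 40.9% of all tested genes. RPL9 stood apart at 22.4, 22 and 22.9 RPKM in 1321N1 and 202, 204 and 188 RPKM in LN18. Ribosomal protein genes have many processed copies, which could share reads.

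Stress genes were apart without treatment, with 15 of 38 tested unfolded protein and heat shock genes higher in LN18 and 5 in 1321N1 (median 0.19). Their called share was 52.6%, against 40.9% of all tested genes. HSPA1A, an inducible HSP70, measured 5.33, 4.46 and 4.43 RPKM in 1321N1 and 108, 83.2 and 92.2 RPKM in LN18, 19.9-fold higher in LN18, while its near-identical neighbour HSPA1B was not called (74.8 ± 7.75 RPKM in 1321N1 and 84.4 ± 7.17 RPKM in LN18). Reads of these copies could have been shared between them. DDIT4, a stress-induced inhibitor of mTOR, was 11.7-fold higher in LN18 (14.2 ± 1.46 RPKM in 1321N1 and 166 ± 27.7 RPKM in LN18). DDIT3 (CHOP), TRIB3, SESN2, CHAC1 and ASNS of the integrated stress response were higher in LN18, and HSPB1, CALR, HSPA5 and ATF6 in 1321N1. MT2A, a metallothionein, measured 123, 107 and 109 RPKM in 1321N1 and 227, 224 and 231 RPKM in LN18, 2.01-fold higher in LN18.

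1321N1 cells are widely used as a host for P2Y receptors and for work on muscarinic receptors. Of the P2Y receptors, P2RY1 averaged 0.437 RPKM and P2RY2 0.00633 RPKM in 1321N1, below the limit for testing. CHRM3, the M3 muscarinic receptor, held 1.46 ± 0.0773 RPKM in 1321N1 and 0.698 ± 0.0371 RPKM in LN18 and was not called (-0.53), though it passed both limits with a pseudocount of 0.1 RPKM (-0.97). ADORA1 was near silent in LN18 (2.4 ± 0.0848 RPKM in 1321N1 and 0.0137 ± 0.00321 RPKM in LN18), and F2RL1, the trypsin receptor PAR2, near silent in 1321N1 (0.0373 ± 0.030 RPKM in 1321N1 and 5.72 ± 0.633 RPKM in LN18). Of 20 tested receptors of this group 9 were higher in 1321N1 and 7 in LN18 (median -0.55). Together 80% were called, against 40.9% of all tested genes.

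Genes of actin and contraction were divided in number, with 7 of 27 tested higher in LN18 and 6 in 1321N1. Their called share was 48.1%, against 40.9% of all tested genes. TPM2, a tropomyosin of muscle, measured 2.87, 2.3 and 2.73 RPKM in 1321N1 and 90.2, 84.9 and 92.1 RPKM in LN18. MYLK, the kinase of myosin light chains, measured 3.96, 4.02 and 3.8 RPKM in 1321N1 and 42, 41.4 and 41.5 RPKM in LN18. MYH10, nonmuscle myosin IIB, was 7.65-fold higher in LN18 (3.51 ± 0.257 RPKM in 1321N1 and 26.9 ± 0.261 RPKM in LN18). ACTB (beta actin), TPM1 and VCL (vinculin) were higher in 1321N1 by 1.81-fold, 2.13-fold and 2.21-fold. The IGF binding proteins were divided as well. IGFBP5, IGFBP7 (0.392 ± 0.0514 RPKM in 1321N1 and 11.7 ± 0.737 RPKM in LN18) and IGFBP4 were higher in LN18 and IGFBP1, IGFBP2 and IGFBP3 (80.8 ± 0.731 RPKM in 1321N1 and 32.3 ± 0.988 RPKM in LN18) in 1321N1.

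Of 33 tested apoptosis regulators 11 were higher in LN18 and 4 in 1321N1 (median 0.10). TNFRSF10D, a decoy receptor of TRAIL, measured 0.050, 0.067 and 0.060 RPKM in 1321N1 and 9.51, 9.42 and 9.62 RPKM in LN18, and its neighbour TNFRSF10C was higher in LN18 as well. FAS, a death receptor, was 2.41-fold higher in 1321N1 (4.97 ± 0.331 RPKM in 1321N1 and 2.06 ± 0.171 RPKM in LN18). Of 24 tested epigenetic writers and erasers 5 were higher in 1321N1 (HDAC4, HDAC9, ARID1B, EZH2 and DNMT3B) and 1 in LN18 (HDAC1). Of 17 tested long noncoding RNAs 4 were higher in LN18, led by SNHG5, a host of small nucleolar RNAs (9.69 ± 0.526 RPKM in 1321N1 and 50.1 ± 3.37 RPKM in LN18), and 1, MALAT1, in 1321N1 (346 ± 34.6 RPKM in 1321N1 and 209 ± 6.01 RPKM in LN18). The called shares were 45.5% of the apoptosis regulators, 25% of the epigenetic genes and 29.4% of the long noncoding RNAs. Over all tested genes the share was 40.9%.

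Among cytokine genes 12 of 29 tested were higher in LN18 and 4 in 1321N1 (median 0.38). Called were 55.2% of them, against 40.9% of all tested genes. IL8 measured 0.235, 0.391 and 0.303 RPKM in 1321N1 and 2.67, 4.97 and 4.37 RPKM in LN18, and IL18 was 5.99-fold higher in 1321N1 (35.3 ± 1.7 RPKM in 1321N1 and 5.88 ± 0.804 RPKM in LN18).

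**Figure D3:**
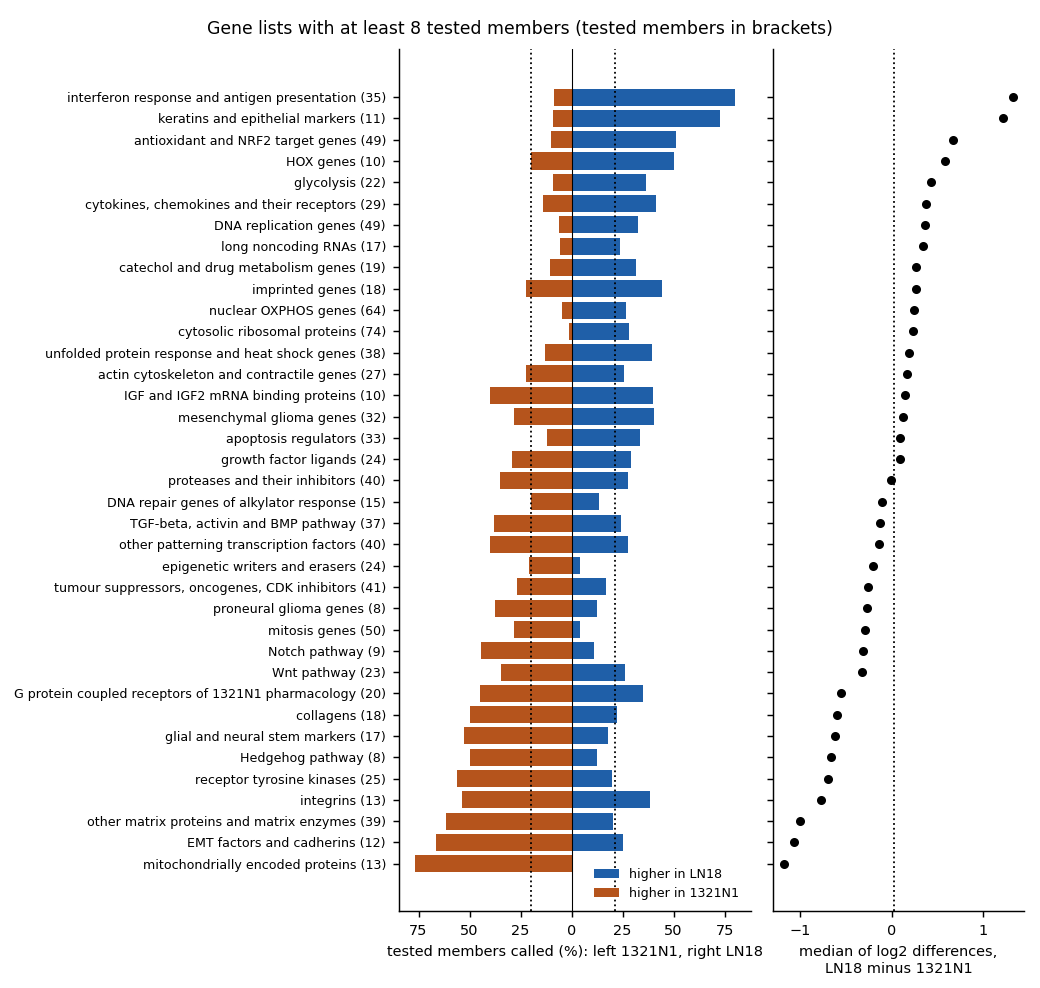
Bars give the percent of tested members of each gene list called higher in LN18 (blue, right) and in 1321N1 (orange, left), and points the median log2 difference of the list. Lists with at least 8 tested members are drawn, and dotted lines mark the same values over all 11088 tested genes (21.1%, 19.8% and 0.03). Interferon and antigen presentation genes lie at the top and mitochondrially encoded proteins and matrix genes at the bottom.

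The differences were not spread evenly over the genome. The median difference of an autosome ranged from -0.44 on chromosome 9, where 183 of 464 tested genes were higher in 1321N1 and 35 in LN18, to 0.42 on chromosome 11, where 56 of 650 were higher in 1321N1 and 249 in LN18. Chromosomes 1, 2, 3, 8, 9 and 19 had a median below 0 and the other 16 autosomes a median above 0. Chromosome 2 stood next to chromosome 9 (median -0.31), and chromosome 4 next to chromosome 11 (median 0.37). The sign of the median was the same in all 3 treated comparisons for 17 of the 22 autosomes.

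Neighbouring genes shared a direction in many places. Runs of at least 6 consecutive tested genes called in the same direction numbered 56, 34 higher in LN18 and 22 higher in 1321N1, and held 510 genes. These runs were described after the values were seen, and no test was made. The longest ran from ZNF823 to CC2D1A on chromosome 19 (GRCh37, 11832080 to 14041692, 2.21 Mb). It held 47 tested genes, all called higher in 1321N1, with a median of -1.59 and absolute differences from 0.73 to 2.96. Of these, 18 have names starting with ZNF, the zinc finger factors clustered on this arm, and the others include CALR, the calcium-binding chaperone of the ER (592, 600.3 and 599.6 RPKM in 1321N1 and 276, 258 and 267 RPKM in LN18), PRDX2, NFIX and CACNA1A, a neuronal calcium channel (7.24 ± 0.35 RPKM in 1321N1 and 0.0547 ± 0.011 RPKM in LN18). In the treated libraries 47 (EGCG), 45 (HC) and 47 (EGCG+HC) of these 47 genes were called higher in 1321N1 and 0 in LN18. The next longest runs held 15 genes each, from GLG1 to MON1B on chromosome 16 (median 1.45), from SLC38A9 to KIF2A on chromosome 5 (median 0.92) and from RAB32 to RAET1G on chromosome 6 (median -1.27). Several genes named above also lay in such runs. Among those higher in LN18 were NQO1 (NIP7 to AARS), FST and ITGA2 (NNT-AS1 to NDUFS4), and MMP2 and MT2A (MMP2 to NLRC5). RBPJ (SEPSECS to RBPJ), RPL9 (TLR1 to LIAS), SLC1A3 (NADK2 to LIFR) and ORC6 (VPS35 to LONP2) were others. Among the largest differences, FOXF1 and FENDRR (EMC8 to FOXL1), NETO2 (VPS35 to LONP2) and MYL9 (MYL9 to DSN1) lay in such runs. Higher in 1321N1 were VIM (VIM-AS1 to MLLT10), ZEB1 and ITGB1 (ZEB1 to CUL2) and CDH2 (C18orf8 to CDH2). SP3P (SLITRK1 to LINC01049), also among the largest differences, lay in a run of this direction. Whether the difference of such a gene was its own or that of its neighbourhood was not tested. DNA copy number was not measured in these libraries.

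**Figure D4:**
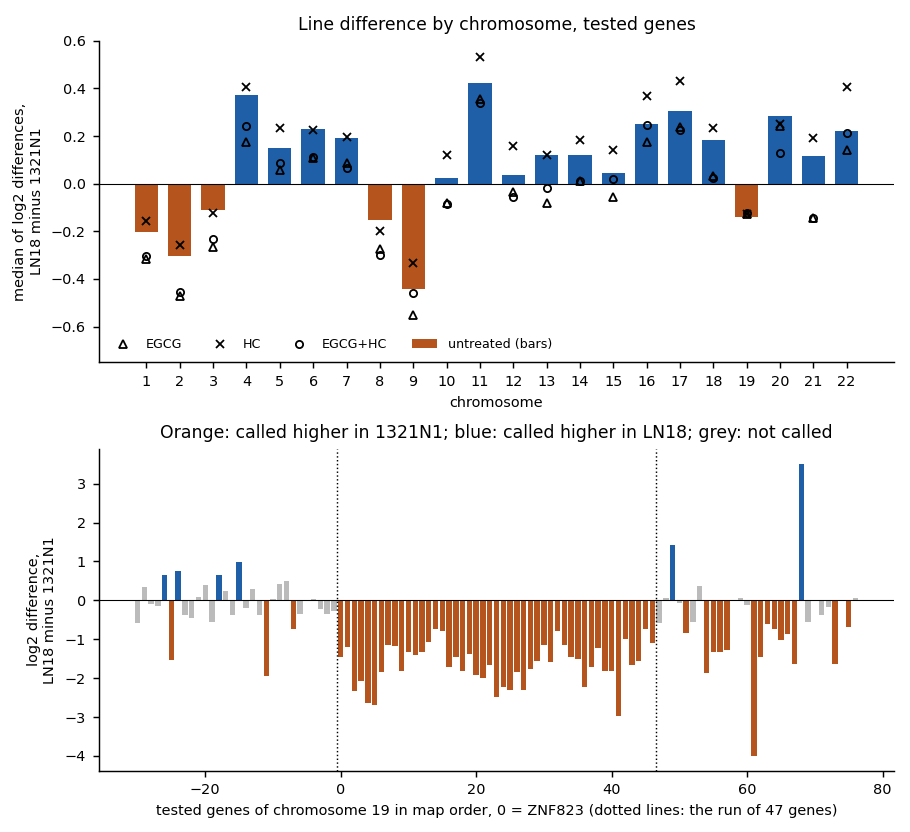
The upper panel gives the median log2 difference (LN18 minus 1321N1) of the tested genes of each autosome in the untreated libraries (bars) and in the 3 treated comparisons (markers). The lower panel gives 1 bar for each tested gene of chromosome 19 in map order around the run of 47 genes from ZNF823 to CC2D1A, all of which lie below 0.

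The treated libraries measured the lines again in other libraries, 3 against 3 for each treatment, with doses of HC that differed between the lines. With the same limits 5219 of 11200 genes (46.6%) differed between the EGCG libraries, 5803 of 11390 (50.9%) between the HC libraries and 5486 of 11645 (47.1%) between the EGCG+HC libraries. Of the genes called higher in untreated LN18, 1629 of 2286 (71.3%) were called higher in LN18 with EGCG, 1749 of 2291 (76.3%) with HC and 1385 of 2234 (62.0%) with EGCG+HC. For those called higher in untreated 1321N1 the numbers were 1778 of 2139 (83.1%), 1327 of 2060 (64.4%) and 1449 of 2033 (71.3%). Between 10 and 60 genes of each set were called in the opposite direction. Of 4167 untreated calls tested under all 3 treatments, 1906 (45.7%) had the same call each time, 953 in each direction.

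Of 45 genes selected for the plot of treated values, all 45 were tested in the EGCG libraries, 43 in the HC libraries and 44 in the EGCG+HC libraries. The call was the same in 41, 41 and 43 of these, and it was the opposite in 0, 1 and 1. Over all tested genes 46.6% (EGCG), 50.9% (HC) and 47.1% (EGCG+HC) were called in either direction, with median differences of -0.06, 0.09 and -0.05. The interferon and antigen presentation genes stayed one-sided. Of 36, 36 and 33 tested, 28, 25 and 19 were higher in LN18 and 3, 3 and 5 in 1321N1. Keratins and epithelial markers stayed one-sided as well. Of 14, 12 and 11 tested, 9, 9 and 8 were higher in LN18 and 0, 2 and 1 in 1321N1. Of 40, 43 and 43 tested matrix genes other than collagens, 24, 17 and 26 were higher in 1321N1 and 7, 13 and 6 in LN18. Other lists changed sides. Of 37 lists with at least 8 members tested without treatment, the line with more of the called members was the other one in 3 lists (EGCG), 9 lists (HC) and 4 lists (EGCG+HC). Unfolded protein and heat shock genes split 15 higher in LN18 to 5 higher in 1321N1 without treatment (38 tested). With HC the split was 3 to 24 and with EGCG+HC 8 to 14 (39 tested each time). For mitosis genes (50 tested) 2 to 14 became 32 to 2 with HC. For DNA replication genes (49 tested) 16 to 3 became 6 to 15 with EGCG. For collagens (18 tested) 4 to 9 became 6 to 5 with HC. For integrins 5 to 7 (13 tested) became 7 to 4 (14 tested) with HC. For mitochondrially encoded proteins (13 tested) 0 to 10 became 4 to 0 with EGCG+HC. For mesenchymal glioma genes 13 to 9 (32 tested) became 6 to 15 (33 tested), also with EGCG+HC. Antioxidant genes (49 tested), at 25 to 5 without treatment, stood at 20 to 15 with HC (median 0.01). The differences between conditions were not tested.

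**Figure D5:**
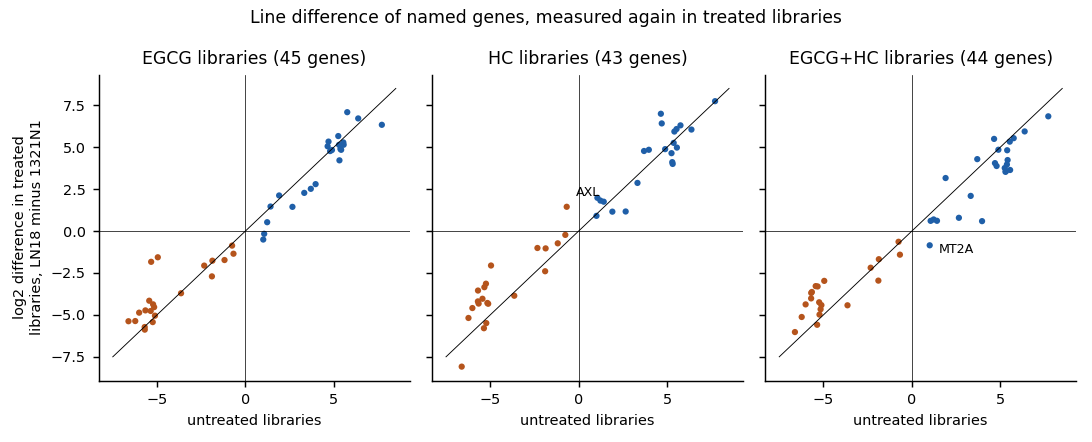
Each point is 1 gene that was tested with the treatment, of 45 selected (29 of the largest differences and other called genes of the glioma and pharmacology set), with its log2 difference between lines in the untreated libraries on the horizontal axis and in the EGCG, HC or EGCG+HC libraries on the vertical axis, and the line marks equality. Blue genes were higher in untreated LN18 and orange genes in untreated 1321N1. The labelled points, AXL with HC and MT2A with EGCG+HC, were called in the opposite direction. MT2A and TERT with EGCG (-0.51 and -0.17) also lie on the other side of 0 but were not called there.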

How the data were processed

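Poly(A) RNA of cultured cells was sequenced as paired reads. Reads were trimmed by the authors, inspected in FastQC and mapped to the human build GRCh37/hg19, and the deposited values are RPKM per gene and library. For the annotation and for the way reads were counted, the sources used here name nothing. Per the labels, groups are line and treatment.

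The 3 control libraries of each line were joined by gene symbol. Symbols were placed with GENCODE v44lift37, 713 tested ones through an older symbol. Left out were 809 genes on X or Y, 5680 without a place, and 26 and 25 date-like names. Genes averaging 1 RPKM or more were tested on log2(RPKM + 1) with limma 3.58.1 in R 4.3.3 (trended prior variance, Benjamini-Hochberg adjustment over 11088 genes). Tables were handled in Python 3.11.15 with pandas 2.3.3. The lines come from separate tables, each library normalized alone. Depth was recovered from RPKM steps, where 87.1 to 91.2% of low values were whole reads within 0.1. Scripts were tested on simulated data.

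Named were preset glioma and pharmacology genes, the 15 largest differences per direction, and up to 4 members per list and direction. The 15 largest were taken among called genes with at least 10 RPKM in every library of the higher line and no overlap of the lines. Other members named beside a count were chosen after their values were seen. The comparison, its gene lists and tests were chosen with earlier results of these data known. Some named genes are not reported here. Alternatives covered pseudocount, filter, scaling, adjustment, fold limit, variance prior, samples, a replicate block and leaving out each library.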

Additional observations from a re-analysis of the deposited data

Results flagged for a closer look

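Several named genes were called in one direction in the untreated libraries and in the opposite direction in treated libraries. The difference between conditions was not tested, and HC doses differed between the lines. With HC, AXL (1.44), F2RL2 (1.29), LFNG (0.99), BIRC2 (0.75) and RFC4 (0.60) were higher in LN18, although they were higher in 1321N1 without treatment. AXL with HC held 20.3, 20.5 and 19.4 RPKM in 1321N1 and 61.1, 53.0 and 55.1 RPKM in LN18. The untreated call of BIRC2 was lost without replicate 1 of LN18 (-0.52). In the other direction, with HC, HSPA1A (-2.77), DDIT3 (-1.74), SESN2 (-1.37), CLU (-1.26) and MMP3 (-0.68) were higher in 1321N1, although they were higher in LN18 without treatment.

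With EGCG, PGF (0.96) and CDKN1A (0.68) were higher in LN18 in place of 1321N1. With EGCG+HC, ALDH1B1 (0.77) and F2RL2 (0.64) were higher in LN18 in place of 1321N1, and GPRC5A (-1.62), ITGB4 (-1.10), HSPA1A (-0.94), MT2A (-0.85) and MT1X (-0.70) were higher in 1321N1 in place of LN18. All values in brackets are log2 differences, LN18 minus 1321N1.

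Genes listed in the control table of a single line stood outside the comparison. Of these, 11 held at least 10 RPKM in every 1321N1 library and 6 in every LN18 library. CLEC3B, tetranectin, was listed for 1321N1 alone, with 125, 110.3 and 126 RPKM. No value of these genes was used for the other line.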

How the results depend on the processing

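The count of 4536 differing genes became 1726 at a mean of at least 10 RPKM (fewer genes tested), 9200 with no fold limit and 2231 with a fold limit of 2. It stayed between 3925 and 5394 under the other alternatives. Leaving out 1 library gave 4465 to 4567 genes, of which 50 to 52.7% were higher in LN18. That share, 51.6%, crossed the midpoint to 47.0% when RPKM were rescaled over genes other than mitochondrial ones, which take a larger share in 1321N1, and to 48.4% with a fold limit of 2, for which the cause was not tested.

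With the replicate number as a block 4539 genes were called. Same-numbered libraries deviated together with correlations of 0.24, 0.27 and -0.06. Replicates 1 and 2 correlated best with their own number and replicate 3 did not. With 3 libraries a line these values cannot decide whether the numbers pair the libraries, and the main test did not pair them.

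Of 297 named genes tested, 228 kept call and direction under all 19 alternatives that gave a value and 69 changed in at least 1. Direction reversed in 2 genes that were not called. MGMT was at -0.02 when rescaled and between -0.02 (without replicate 3 of LN18) and 0.05 (without replicate 2 of LN18) when 1 library was left out. AKR1C1 was at 0.04 with quantile normalization and between -0.10 (without replicate 2 of 1321N1) and 0.00 (without replicate 3 of 1321N1) when 1 library was left out, where the cause was not tested. At these depths a level of 1 RPKM rests on few reads, so low genes carry the larger error.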
